A study of Mus musculus with 8 samples.

Results

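GC-poor protein-coding promoters are the HA (hemagglutinin) ChIP-seq peaks whose summit lay within 1 kb of a transcript start of a protein-coding gene and whose own sequence was under 55% GC. Peaks with the summit inside a repeat-masked run of 5 kb or more were left out. Across 4 peak lists 3488 of 70200 peaks met the rule. They were 362 of 11010 peaks in the C29F4 list (3.29%, exact 95% interval 2.96 to 3.64%), 1959 of 40816 in the ab9110 DMSO list (4.8%, 4.59 to 5.01%), 1097 of 16324 in the ab9110 dTAG list (6.72%, 6.34 to 7.12%) and 70 of 2050 in the dTAG input list (3.41%, 2.67 to 4.29%). All libraries came from EHMT2-dTAG-mcherry mouse embryonic stem cells (mESCs) of BL6/129 background, in which every endogenous EHMT2 copy ends in a degron (FKBP12F36V), 2 HA copies and an mCherry reporter. The cells received DMSO, or dTAG to degrade EHMT2, for 24 h. The HA antibody C29F4 was used on DMSO-treated cells (2 ChIP samples, merged by the authors into 1 list, and 2 inputs), and the HA antibody ab9110 on DMSO-treated and on dTAG-treated cells (1 ChIP and 1 input sample each). Cells without the HA tag are not among the groups, and each condition is 1 list, so no difference between lists has a replicate check. Intervals are exact (Clopper-Pearson) binomial intervals, cover counting error only and treat peaks as independent. The mean fragment coverage solved from the lists was highest with C29F4 (3.64), followed by 2.11 with ab9110 in DMSO, 1.23 with ab9110 after dTAG and 0.978 in the input.

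EHMT2 (G9a) is a histone methyltransferase that works with its partner EHMT1 to place H3K9me2, a mark of repressed chromatin. It does not read DNA sequence itself and is brought to its sites by DNA-binding factors and their cofactors. Most mammalian promoters lie in CpG islands, which are GC-rich, free of DNA methylation and used by housekeeping and developmental genes alike. Promoters with low GC content are typical of genes used in 1 tissue, and their CpG sites are often methylated and lost over evolution. Several classes of factors bind near starts. REST binds the RE1 element and keeps neuronal genes silent outside neurons, YY1 and its relative ZFP42 bind a core that contains ATGG, and NRF1, ETS factors and ZNF143 bind active promoters of housekeeping genes.

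The sequences of 6 of these peaks show the letters behind the results. They were read from the RefSeq copy of GRCm38 (mm10) on the strand of the gene, 5′ to 3′, in the stretch around the summit that holds no annotated exon. Capitals mark every match, on either strand, to the 16 motifs counted further on. The first 3 had peaks of both HA antibodies in DMSO and lacked an ab9110 dTAG peak, namely Npas4 (chr19:4989072-4989371, minus strand, intron), Krt86 (chr15:101473045-101473344, plus strand, intergenic) and Mrpl3 (chr9:105053011-105053238, plus strand, intergenic). Unk (chr11:116030066-116030321, plus strand, intergenic) was among the strongest peaks after dTAG. Shmt2 (chr10:127522445-127522652, minus strand, intergenic) and Rbm3 (chrX:8145246-8145428, minus strand, intron) were called with ab9110 after dTAG alone.
Npas4: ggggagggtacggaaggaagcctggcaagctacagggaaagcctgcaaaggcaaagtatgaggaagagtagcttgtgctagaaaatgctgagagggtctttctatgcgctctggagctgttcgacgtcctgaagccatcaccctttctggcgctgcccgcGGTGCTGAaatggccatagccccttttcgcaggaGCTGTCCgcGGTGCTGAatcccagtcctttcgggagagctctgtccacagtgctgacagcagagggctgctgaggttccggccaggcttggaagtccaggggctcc
Krt86: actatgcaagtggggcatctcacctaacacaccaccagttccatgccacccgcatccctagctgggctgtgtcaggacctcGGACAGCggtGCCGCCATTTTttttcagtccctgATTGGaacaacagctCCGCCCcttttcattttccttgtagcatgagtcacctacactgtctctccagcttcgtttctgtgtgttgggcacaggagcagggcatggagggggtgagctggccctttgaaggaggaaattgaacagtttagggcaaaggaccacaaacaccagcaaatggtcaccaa
Mrpl3: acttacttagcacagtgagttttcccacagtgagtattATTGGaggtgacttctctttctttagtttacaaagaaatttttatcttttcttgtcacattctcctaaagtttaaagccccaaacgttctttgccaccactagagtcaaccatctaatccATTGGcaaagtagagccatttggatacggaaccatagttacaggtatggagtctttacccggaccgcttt
Unk: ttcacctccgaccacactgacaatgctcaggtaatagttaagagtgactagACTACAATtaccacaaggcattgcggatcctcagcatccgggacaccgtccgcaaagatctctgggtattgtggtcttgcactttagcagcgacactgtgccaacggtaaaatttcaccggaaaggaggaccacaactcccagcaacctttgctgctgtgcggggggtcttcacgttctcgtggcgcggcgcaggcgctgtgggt
Shmt2: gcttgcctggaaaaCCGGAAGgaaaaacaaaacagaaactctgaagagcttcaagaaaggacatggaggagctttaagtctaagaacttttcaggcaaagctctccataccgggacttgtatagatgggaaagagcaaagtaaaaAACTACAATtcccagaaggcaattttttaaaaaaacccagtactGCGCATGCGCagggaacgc
Rbm3: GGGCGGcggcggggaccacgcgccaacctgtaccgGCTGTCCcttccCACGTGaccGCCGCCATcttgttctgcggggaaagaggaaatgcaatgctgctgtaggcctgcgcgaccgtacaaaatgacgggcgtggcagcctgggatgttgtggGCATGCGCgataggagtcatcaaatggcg

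The Npas4 stretch holds the letters GGTGCTGA in 2 places and GCTGTCC between them, which on the other strand read TCAGCACC and GGACAGC, the left and right arms of RE1. The Krt86 stretch holds GCCGCCATTTT, a run in which the YY1-like letters ATGGCGGC and AAAATGGC overlap on the other strand. The Shmt2 stretch holds an NRF1-like palindrome, an ETS-like CCGGAAG and the ZNF143-like letters AACTACAA. The Unk stretch holds ACTACAAT, which shares 7 letters with the former, and the Mrpl3 stretch holds CCAAT in 2 places and no other of the motifs counted.

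The lists differed in how much of their promoter signal was GC-poor. Among promoter peaks outside long repeats, members made up 362 of 495 in C29F4 (73.1%, 69 to 77%), 1959 of 5431 in ab9110 DMSO (36.1%, 34.8 to 37.4%), 1097 of 6611 in ab9110 dTAG (16.6%, 15.7 to 17.5%) and 70 of 247 in the input (28.3%, 22.8 to 34.4%). The C29F4 share was thus the highest and lay above that of the input, while the ab9110 dTAG share was the lowest and lay below it. In C29F4 the fullest class of promoter peaks was 45 to 50% GC, with 123 peaks. In ab9110 dTAG it was 65% GC and over, with 2617 peaks. That class has no upper limit and is wider than the even classes between 40 and 65% GC, so the counts are not of like classes. The median GC content of members was 46.7% in C29F4, 50.5% in ab9110 DMSO, 51.2% in ab9110 dTAG and 50.1% in the input.

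**Figure D1:**
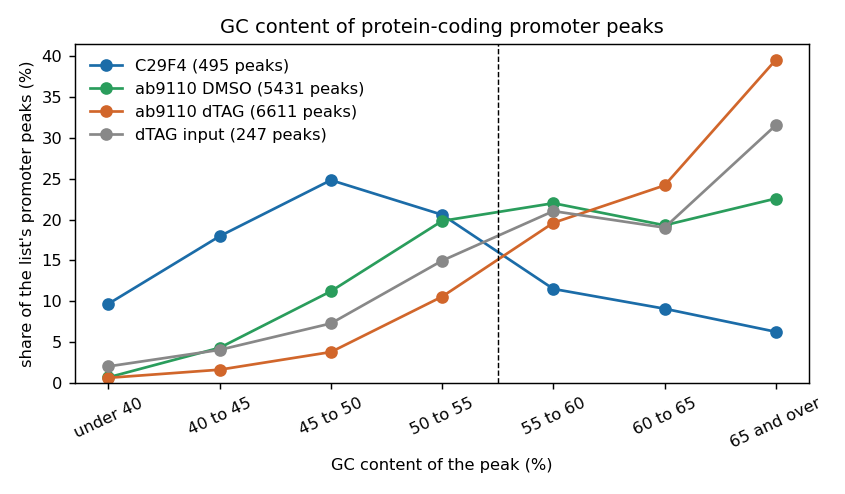
GC content of the peak (x axis, %) against the share of each list's protein-coding promoter peaks (y axis, %), 1 line per list, with the 55% limit dashed. The C29F4 line is highest at 45 to 50% GC and falls beyond. The ab9110 dTAG and input lines are highest at 65% GC and over, an open class wider than its neighbours.

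The limit at 55% cuts through a continuous range. Just under it lay the promoter peaks of Otulin and Mapk11 in C29F4 (each 54.9% GC, fold enrichment 3.17 and 2.74), of Apoe and Slco5a1 in ab9110 DMSO (fold 2.73 and 5.46) and of Arl1 and Hnrnpu in ab9110 dTAG (fold 3.42 and 5.17). Just at or above it lay Srrm2 and Cep295 in C29F4 (fold 2.89 and 3.09), Lsm4 and Osr2 in ab9110 DMSO (fold 2.24 and 3.21) and Lyrm7 and Nme6 in ab9110 dTAG (fold 4.47 and 4.06).

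The members of the 3 ChIP lists, many of which overlap between lists, also differed in CpG content, repeat-masked summits and neighbouring starts. The observed to expected CpG ratio had a median of 0.331 for C29F4 members, 0.399 for ab9110 DMSO and 0.572 for ab9110 dTAG, against 0.651, 0.793 and 0.83 for GC-rich promoter peaks of the same lists. The 300 bases around the summit held a median of 6 CG dinucleotides in C29F4 members, 7 in ab9110 DMSO members and 12 in ab9110 dTAG members. The median GC content of the lists, which the rule bears on, has the same order, and these values are a description. The summit lay in repeat-masked sequence in 12.4% of C29F4, 16.8% of ab9110 DMSO and 11.5% of ab9110 dTAG members, against 4.51%, 5.24% and 4.61% of GC-rich promoters. A second protein-coding gene started within 1 kb of the summit for 2.21% of C29F4 members, 5.82% of ab9110 DMSO members and 12.9% of ab9110 dTAG members.

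Members also sat farther from the start than GC-rich promoter peaks. The rule splits peaks by their own GC content, which can itself vary with distance from the start, and its part in this difference was not tested. The summit was within 250 bp of a start in 43.4% of C29F4 members, 51.8% of ab9110 DMSO members and 61.6% of ab9110 dTAG members. For GC-rich promoters the shares were 63.9%, 81.6% and 84.1%. C29F4 summits of members lay mostly upstream of the start (68%, median position -181 bp), whereas those of GC-rich C29F4 promoters lay mostly downstream (36.8% upstream, median 65 bp). The ab9110 dTAG members centred on the start (median -25 bp, 56.7% upstream). By annotation, the summit was in an intron in 41.4% of C29F4, 38.3% of ab9110 DMSO and 33.5% of ab9110 dTAG members. It was in an untranslated region in 9.12%, 14.5% and 22.3% of them.

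**Figure D2:**
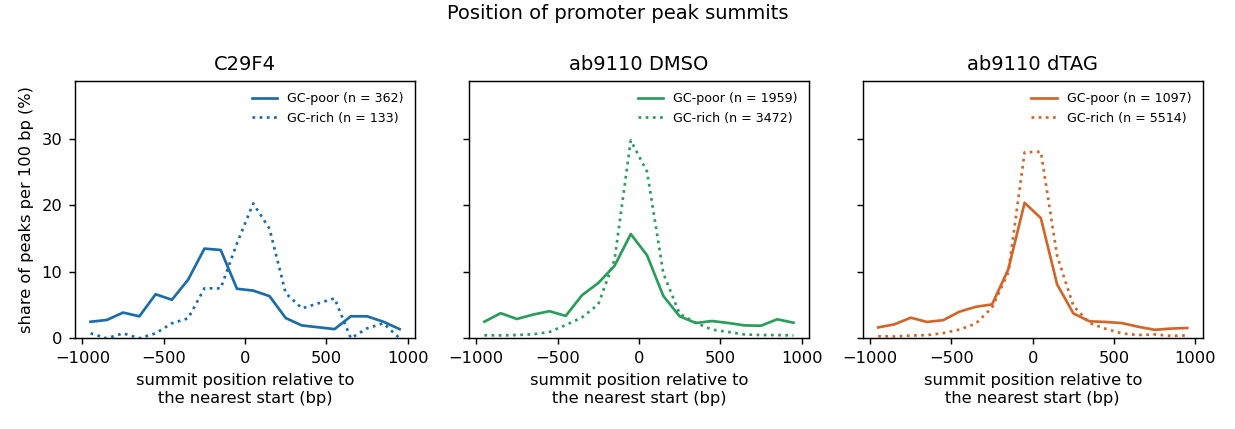
Position of the summit relative to the nearest protein-coding start (x axis, bp, negative upstream) against the share of peaks per 100 bp (y axis, %), for GC-poor (solid) and GC-rich (dotted) promoter peaks in 3 panels for the 3 ChIP lists. The GC-poor C29F4 summits are highest upstream of the start, while the other profiles are highest close to it.

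Enrichment of the members was moderate in all ChIP lists. The fold enrichment is the ratio of fragments to local background at the summit with 1 added to both, which lowers folds most where the background is low, as after dTAG. It had a median of 3.34 in C29F4 (highest 17.4), 3.2 in ab9110 DMSO (highest 17.5), 3.91 in ab9110 dTAG (highest 15.6) and 4.53 in the input (highest 9.19). A median of 33.5 fragments lay behind a C29F4 member, 17 behind an ab9110 DMSO member, 13 behind an ab9110 dTAG member and 10 behind an input member. C29F4 members therefore rest on the most fragments. Folds of different lists come from libraries of different depth and background and are set side by side without a test.

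The highest members of the C29F4 list were Nr3c1, the glucocorticoid receptor gene, Mrpl3, Gm20715, Krt86 and Pex7. At Nr3c1, with the summit 555 bp upstream of the start, the fold was 17.4 with C29F4 (222 fragments), 15.2 with ab9110 in DMSO (92 fragments) and 5.63 after dTAG (19 fragments). At Mrpl3, which encodes a protein of the mitochondrial ribosome (peak chr9:105052614-105053635, intergenic, 78 bp upstream), the fold was 14.7 with C29F4 and 17.5 with ab9110 in DMSO, and no peak was called after dTAG. At Gm20715, a predicted gene (chr7:6409976-6410775, intron, 15 bp upstream), the folds were 14.4, 13.1 and 5.07. These 3 promoters were high with both antibodies in DMSO, and their dTAG value was lower or below the call. They were named for high folds in DMSO-treated cells, so a lower dTAG value is partly set by that choice. Krt86, a hair keratin gene (chr15:101472664-101473658, 283 bp upstream), had folds of 13.8 and 6.36 in DMSO and no dTAG peak. Pex7, which encodes an import receptor of peroxisomes (chr10:19907493-19908646, 306 bp upstream), had folds of 13.6, 8.23 and 4.27.

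The highest ab9110 DMSO members were Mrpl3, Mff, Nr3c1, Mkrn3 and Gm20715, so 3 of the 5 were also among the highest of C29F4. Mff, whose product drives mitochondrial fission (chr1:82723687-82725470, exon of a noncoding transcript, 79 bp upstream), had folds of 6.79 with C29F4, 16.4 with ab9110 in DMSO and 7.64 after dTAG. Mkrn3, an imprinted gene expressed from the paternal allele (chr7:62419666-62421040, intron, 23 bp upstream), had folds of 11.7, 13.8 and 2.79. Mkrn3 also had an input peak, with a fold of 4.55 on 8 fragments.

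The highest ab9110 dTAG members were another set, namely Ttc30b, Upp1, Unk, Fen1 and Calcoco1, and C29F4 called none of them. Ttc30b, a gene of ciliary transport (chr2:75937994-75938869, untranslated region, 15 bp downstream), had a fold of 4.63 in DMSO and 15.6 after dTAG. Unk, which encodes an RNA-binding zinc finger protein (peak chr11:116029393-116031052, 106 bp upstream), had folds of 7.39 and 13.6. Fen1, whose product cuts flaps in DNA replication (chr19:10203636-10204653, untranslated region, 30 bp upstream), had folds of 6.82 and 13.5. At these 3 promoters the fold was higher after dTAG, which is partly set by their choice for a high dTAG fold. The local background was 8.07, 8.07 and 4.86 fragments in DMSO and 1.63, 3.19 and 2.55 after dTAG, and the fragments were 41, 66 and 39 against 40, 56 and 47. Upp1, encoding a uridine phosphorylase (chr11:9115493-9117778, 981 bp upstream), had folds of 12.7 and 14.3. Calcoco1 (chr15:102721897-102722607, 30 bp upstream) had folds of 8.29 and 11.

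The input list holds background chromatin without pulldown. Its highest members were Gria1, a glutamate receptor subunit gene (fold 9.19, 20 fragments), Gm21188 (fold 8.72) and Adgre4 (fold 7.47). Of the ChIP members 3 of 362 in C29F4 (0.829%, 0.171 to 2.4%), 13 of 1959 in ab9110 DMSO (0.664%, 0.354 to 1.13%) and 6 of 1097 in ab9110 dTAG (0.547%, 0.201 to 1.19%) overlapped an input peak. Over the whole lists the shares were 0.981%, 0.627% and 0.649%, within the intervals of the members.

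The next comparison asked how far the HA antibodies called the same GC-poor promoters in cells that hold EHMT2. Of C29F4 members, 277 of 362 overlapped an ab9110 DMSO peak (76.5%, 71.8 to 80.8%), against 67% of all C29F4 peaks. GC-rich C29F4 promoters overlapped in 75.9% of 133 cases (67.8 to 82.9%), so GC-poor and GC-rich promoters did not differ beyond counting error. In the other direction 235 of 1959 ab9110 DMSO members overlapped a C29F4 peak (12%, 10.6 to 13.5%), below the 18.1% of the whole list and above the 4.35% of GC-rich promoters (3.69 to 5.08%). The share climbed with fold, from 3.93% in the lowest of 3 fold classes of ab9110 DMSO members (fold 2.04 to 2.99) to 24.2% in the highest (fold 3.54 to 17.5). With the DMSO list scaled to dTAG coverage, which leaves 688 stronger members, it was 24.3%, and with an overlap of 50% of the member it was 7.15%.

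HA ChIP in cells depleted of EHMT2 asks which of these peaks remain without the tagged protein. Of ab9110 DMSO members, 774 of 1959 overlapped a dTAG peak (39.5%, 37.3 to 41.7%). The share was 18.9% for the whole list and 66.7% for GC-rich promoters (65.1 to 68.2%). GC-poor promoter peaks were therefore less often called again after dTAG than GC-rich ones, and more often than DMSO peaks in all. Close to the start, within 250 bp, 51.3% of members (48.2 to 54.4%) and 69.7% of GC-rich promoters (68 to 71.4%) were called again. Farther out the shares were 26.8% (24 to 29.7%) and 53.1% (49.2 to 57.1%). Scaled to the dTAG coverage, the shares were 64% of 688 members (60.2 to 67.5%) and 79.8% of 1290 GC-rich promoters (77.6 to 82%).

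Across GC classes the lists moved in opposite directions. The share of ab9110 DMSO promoter peaks that overlapped a dTAG peak climbed from 16.2% under 40% GC (6.19 to 32%, 37 peaks) over 33.3% at 45 to 50% GC (29.5 to 37.2%) to 73.8% at 65% GC and over (71.2 to 76.2%). The share that overlapped a C29F4 peak dropped from 18.9% (7.96 to 35.2%) over 12.6% (10.1 to 15.5%) to 2.12% (1.39 to 3.09%). The median fold of the DMSO peaks was between 2.85 and 3.28 in all 7 classes. A call also depends on fragments and background, which differed with GC content. GC-rich DMSO promoter peaks had a median of 20 fragments on a background of 5.9, and members 17 on 4.4. The part of this in the trends was not tested.

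**Figure D3:**
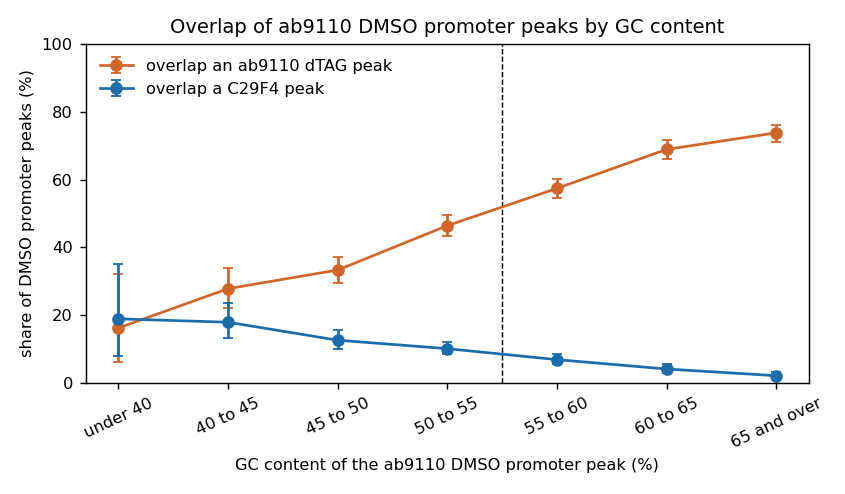
GC content of ab9110 DMSO promoter peaks (x axis, %) against the share that overlaps an ab9110 dTAG peak or a C29F4 peak (y axis, %), with exact 95% binomial intervals and the 55% limit dashed. The dTAG share climbs from 16.2% to 73.8% and the C29F4 share drops from 18.9% to 2.12%.

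Of C29F4 members, 123 of 362 overlapped an ab9110 dTAG peak (34%, 29.1 to 39.1%), against 21.7% of the whole list and 44.4% of GC-rich promoters (35.8 to 53.2%). With an overlap of 50% of the member the share was 21.8%. In the whole C29F4 list 46.1% of peaks overlapped a DMSO peak alone, 20.8% a peak of both ab9110 lists and 32.2% neither. Sorted in the same way, 155 C29F4 members had an overlapping peak in DMSO alone (42.8%, 37.7 to 48.1%), 122 in both (33.7%, 28.8 to 38.8%), 84 in neither (23.2%, 19 to 27.9%) and 1 in dTAG alone. The DMSO-alone share of members thus did not differ from the list beyond counting error, while their share with both was higher and with neither lower. The members with a DMSO peak alone had a median of 34 C29F4 fragments, a median CpG ratio of 0.314, and were within 250 bp of a start in 39.4% of cases. Those with both had 44 fragments, 0.42 and 50.8%. The 5 strongest of the former were Mrpl3 and Krt86 (above), Npas4, Usp29 and Dlgap3. Npas4, a transcription factor gene induced by neuronal activity (chr19:4988751-4989800, intron, 682 bp downstream), had a fold of 10.8 with C29F4 (220 fragments) and 4.84 with ab9110 in DMSO (50 fragments). Usp29, an imprinted gene (chr7:6947840-6948763, intron, 930 bp downstream, 82.8% repeat-masked), had folds of 7.31 and 4.35. Dlgap3, which encodes a scaffold of the postsynaptic density (chr4:127173457-127174214, intron, 806 bp downstream), had folds of 7.26 and 5.74. All 5 lacked a dTAG peak, as the rule that named them requires.

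Of ab9110 dTAG members, 604 of 1097 overlapped a DMSO peak (55.1%, 52.1 to 58%), against 46.8% of the whole list and 44% of GC-rich promoters (42.7 to 45.3%). Against the DMSO list scaled to dTAG coverage the share was 33.1%. A further comparison found 67 dTAG members that overlapped a C29F4 peak (6.11%, 4.76 to 7.69%), against 14.8% of the whole list. The remaining 493 overlapped neither list (44.9%, 42 to 47.9%), less often than the 52.7% of all dTAG peaks and the 55.9% of GC-rich promoters (54.6 to 57.2%), with a median of 11 fragments and a median fold of 3.63. The strongest members with no DMSO and no input peak were Gm37419, Rbm3, Shmt2, Gosr2 and Larp7, with dTAG folds between 7.21 and 7.48 on 16 to 21 fragments. Rbm3 is an RNA-binding gene induced by cold (chrX:8144188-8146268, intron, 283 bp downstream, 16 fragments), Shmt2 encodes a mitochondrial enzyme of serine and one-carbon metabolism (chr10:127521974-127522713, 59 bp upstream, 21 fragments), Gosr2 a Golgi vesicle protein (chr11:103697657-103698421, untranslated region, 20 fragments) and Larp7 a protein that holds the 7SK RNA (chr3:127552408-127554057, intron, 20 fragments). The absence of a DMSO peak is a missing call, not a measured value of zero.

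The fold between treatments was compared for members with a peak in both ab9110 lists. A peak enters this comparison only if it was called in the shallower dTAG list, where the lowest fold of a member was 2.58 and the lowest −log10 p of the list 4.28, against 2.04 and 3.85 in DMSO. A higher dTAG fold is therefore partly set by this choice, and the shares are a description. Of the 664 shared members without a C29F4 peak, 511 had the higher fold after dTAG (77%, 73.6 to 80.1%), with a median of 3.29 in DMSO and 4.21 after dTAG and a median log2 ratio of 0.32 (quartiles 0.03 and 0.65). Of the 110 shared members with a C29F4 peak, 41 had the higher fold after dTAG (37.3%, 28.2 to 47%), with medians of 4.9 and 4.03 and a median log2 ratio of -0.20 (quartiles -0.72 and 0.24). In the whole DMSO list, chosen in the same way, the shares were 77.7% without and 21.8% with a C29F4 peak, so members without one matched the list and members with one lay above it. In GC-rich promoters the shares were 88.8% (87.5 to 90.1%) and 64% (52.1 to 74.8%). The members with a C29F4 peak had the higher DMSO folds, and the part of that in this difference was not tested. With fragments divided by the mean coverage of each library in place of fold, the shares of members were 83.3% without and 40% with a C29F4 peak, and those of GC-rich promoters 90.1% and 46.7%, so that the direction turned for GC-rich promoters with a C29F4 peak.

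On the log2 scale of the dTAG to DMSO fold ratio, the lowest values among members with a C29F4 peak were at Mkrn3 (-2.31), Nr3c1 (-1.43), Gm20715 (-1.37) and Pex19 (-1.30), a peroxisome biogenesis gene with folds of 9.45 and 3.84. The highest were at Ywhag (1.36), Cwc22 (1.26) and Ndrg3 (1.25). Tdh, the threonine dehydrogenase gene used by mESCs, had folds of 4.37 and 8.17 at this peak (0.90). Without a C29F4 peak, Ttc30b had a ratio of 1.75 and Prune2 of -1.30 (folds 9.31 and 3.78). More than 1 DMSO peak can meet the same dTAG peak. At Phc1, a Polycomb gene, a dTAG peak with a fold of 9.33 met a DMSO peak of 7.65 with a C29F4 peak (0.29) and a side peak of 2.57 without one (1.86). The genes of this paragraph were picked by their ratios, after the values were seen, and with 1 list per treatment no ratio has an error.

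**Figure D4:**
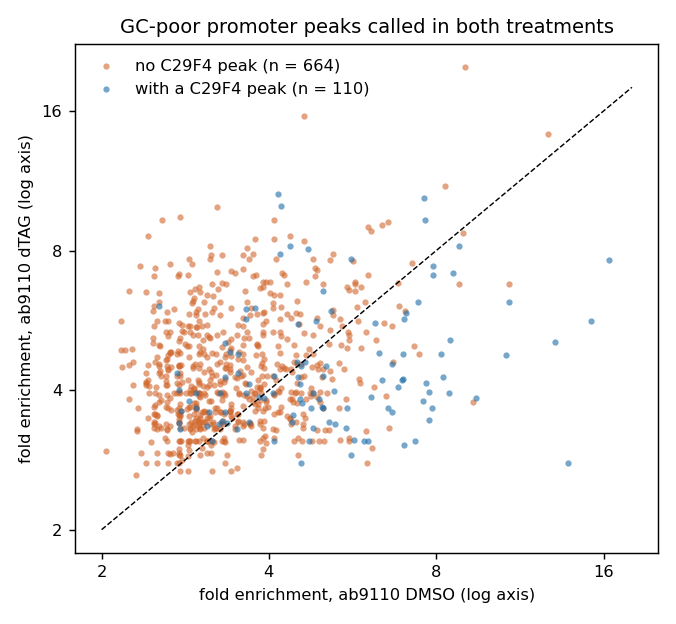
Fold enrichment in ab9110 DMSO (x axis, log) against the overlapping ab9110 dTAG peak (y axis, log) for 774 GC-poor DMSO promoter peaks called in both treatments, with (blue, 110) and without (orange, 664) a C29F4 peak and the line of equality dashed. Most orange points (77%) lie above the line and 37.3% of blue points do.

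Of 2564 genes with a member in any of the 3 ChIP lists, 60 had one in all 3. Their peaks need not overlap. The highest by the lowest of the 3 folds was Cdk5rap2, a centrosome gene (chr4:70410420-70411141, 326 bp upstream), with 5.16 in C29F4, 8.8 in ab9110 DMSO and 8.19 in ab9110 dTAG. Next to Gm20715 stood Cbx7, a Polycomb gene (chr15:79970481-79970795, intron, folds 4.68, 8.58 and 7.16), and Cwf19l2 (chr9:3439640-3440103, 83.4% repeat-masked, folds 4.67, 4.51 and 4.27). Rrm1, the large subunit of ribonucleotide reductase, had folds of 7.01, 6.94 and 4.21, and Trmt12, a tRNA modification gene, 4.88, 5.24 and 3.98. Gm4756 had 4.29, 6.82 and 4.06. Syt7, which encodes a calcium sensor of vesicle fusion (chr19:10402909-10403581, intron, 818 bp upstream), had 8.48, 7.78 and 3.96.

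Seen from the genes, a GC-poor start seldom carried a peak. Of 7093 genes with every annotated start in a 500-bp window under 55% GC, 108 had a C29F4 summit within 1 kb of a start (1.52%, 1.25 to 1.84%), against 2.3% of all 21848 protein-coding genes and 2.08% (1.71 to 2.5%) of genes with GC-rich starts throughout. For ab9110 DMSO it was 600 genes (8.46%, 7.82 to 9.13%), against 25.2% of all and 25.5% (24.3 to 26.7%) of GC-rich genes. For ab9110 dTAG it was 372 genes (5.24%, 4.74 to 5.79%), against 32% of all and 37.3% (36 to 38.6%). In percentage points the gap between GC-poor and GC-rich genes was thus narrow in C29F4 and wide in both ab9110 lists. The lists call very different shares of all genes, so these gaps are not on a like scale. In the input, without pulldown, the shares were 0.31% (0.194 to 0.469%) and 1.2% (0.925 to 1.54%), against 1.25% of all genes. GC-poor genes thus had the lower share there too. Many members lie at genes with starts of both kinds. With the DMSO list scaled to dTAG coverage, 3.16% of the GC-poor genes had an ab9110 DMSO summit.

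Motifs were counted on both strands in the 300 bases centred on the summit, and in 300 bases centred on each of 43708 distinct protein-coding starts with a GC-poor window. The words TCAGCACC, GGACAGC, AAAATGGC, ATGGCGGC, GCATGCGC, AACTACAA and CCCCGCCC were picked after short words common in these peaks had been seen, so their excess in members is a description. A match says that the letters are there, not that a factor binds. Some words overlap each other, such as AAAATGGC with ATGGCGGC, CGCATGCG with GCATGCGC and ACTACAAT with AACTACAA.

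Words of RE1 and YY1 type were more frequent in C29F4 members than in ab9110 members. The C29F4 members are also the smaller and stronger set. Their median −log10 q was 6.36 on 33.5 fragments, against 2.6 on 17 in ab9110 DMSO and 2.81 on 13 in ab9110 dTAG. The part of peak strength and list size in the motif shares was not tested, so they do not show an antibody difference. TCAGCACC, the left arm of RE1, was in 10.8% of C29F4 members, 3.27% of ab9110 DMSO members, 1.91% of ab9110 dTAG members and 1.61% of GC-poor start windows. All start windows held it in 1.83%. Both arms together, TCAGCACC followed after 1 to 12 bases by GGACAG on the same strand, were in 18 of 362 C29F4 members (4.97%, 2.97 to 7.74%), 17 of 1959 ab9110 DMSO members (0.868%, 0.506 to 1.39%), 2 of 1097 ab9110 dTAG members (0.182%, 0.0221 to 0.657%) and 15 of 43708 GC-poor start windows (0.0343%, 0.0192 to 0.0566%). These words were not particular to GC-poor promoters. The 133 GC-rich C29F4 promoters held the RE1 pair in 12% of cases (7.04 to 18.8%), TCAGCACC in 20.3%, AAAATGGC in 15.8% and ATGGCGGC in 18%, and the whole C29F4 list held them in 1.94%, 4.8%, 6.75% and 1.34%. AAAATGGC was in 11% of C29F4 members, 4.34% of ab9110 DMSO members, 2.37% of ab9110 dTAG members and 1.53% of GC-poor start windows (1.68% of all start windows). For ATGGCGGC the shares were 7.46%, 3.57%, 3.56% and 0.696% (3.56% of all start windows). In C29F4 members AAAATGGC lay at a median of 42 bp from the summit, and 62.5% of its carriers had it within 50 bp.

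Several motifs of housekeeping promoters were ordered the other way, with the highest share in ab9110 dTAG members. The NRF1-like word GCATGCGC was in 2.49% of C29F4 members, 3.88% of ab9110 DMSO members and 5.38% of ab9110 dTAG members, against 0.844% of GC-poor and 2.57% of all start windows. The ZNF143-like word AACTACAA was in 1.38%, 3.01% and 5.83%, against 1.39% and 1.24%. The GC box GGGCGG was in 15.5%, 24.9% and 31.4%, against 8.9% and 38.9%, and its longer form CCCCGCCC in 3.59%, 8.47% and 9.21%, against 2.5% and 17.3%. The ETS-like CCGGAAG did not follow this order between the DMSO lists, at 11.6%, 9.9% and 14.3%, against 3.35% and 10%. Among the other words, TCCCGC was in 10.2%, 14.4% and 19.7% (23.7% of all start windows), the E-box CACGTG in 8.01%, 9.04% and 10.1% (6.57%), the cAMP response word TGACGTCA in 0.829%, 1.53% and 3.1% (1.75%), CGCATGCG in 1.38%, 2.25% and 3.83% (1.74%) and ACTACAAT in 1.38%, 1.68% and 3.01% (0.637%). The TATA word TATAAA was in 13.8%, 9.6% and 9.48% (17.5% of GC-poor and 9.84% of all start windows) and CCAAT in 35.1%, 33% and 33.8% (36.4% and 32.6%). GGACAGC, which is also the right arm of RE1, was in 14.6%, 9.8% and 8.2% (6.8% and 8.06%). The lists differ in GC content, size and peak strength as given above, and the part of these in the orders was not tested. Peak windows are centred on summits and start windows on starts, so the windows differ in position too.

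**Figure D5:**
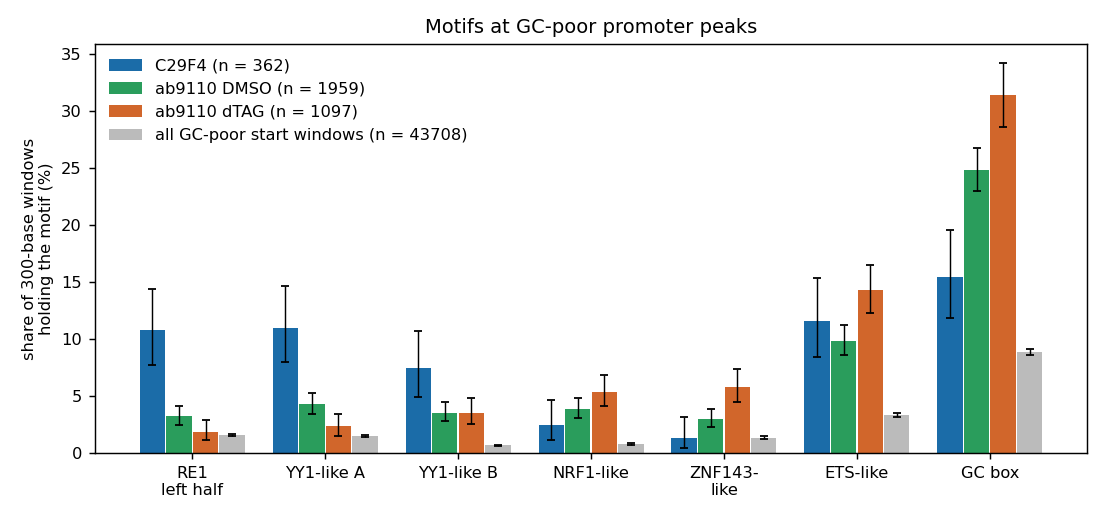
Share of 300-base windows that hold a motif (y axis, %) for GC-poor promoter peaks of the 3 ChIP lists and for all GC-poor start windows, with exact 95% binomial intervals. The RE1 word is TCAGCACC, YY1-like A is AAAATGGC, YY1-like B is ATGGCGGC, and the RE1 and YY1-like words are highest in C29F4 while the NRF1-like, ZNF143-like and GC box words are highest in ab9110 dTAG.

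The RE1 words were more frequent in 1 class of C29F4 members than in another. Among members called in ab9110 DMSO and not after dTAG, 18.1% held TCAGCACC (12.4 to 25%) and 8.39% (4.54 to 13.9%, 13 of 155) both arms. Among members called in both ab9110 lists the shares were 3.28% (0.9 to 8.18%) and 1.64% (0.199 to 5.8%, 2 of 122). The YY1-like words were in both classes with overlapping intervals, AAAATGGC in 10.3% (6.02 to 16.2%) and 15.6% (9.64 to 23.2%) and ATGGCGGC in 6.45% (3.14 to 11.5%) and 13.9% (8.33 to 21.4%). No test of these differences was made, since the words were chosen after they had been seen. The same order was seen among ab9110 DMSO members with a C29F4 peak, where both RE1 arms were in 9 of 125 members without a dTAG peak (7.2%, 3.35 to 13.2%) and in 2 of 110 members with one (1.82%, 0.221 to 6.41%). These members are largely the same sites, so the latter is no second sample. The C29F4 fragments of the classes differed as given above, and the part of depth in the missing dTAG calls was not tested.

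The 18 C29F4 members with both arms lay at several genes known from neurons and at others. Beside Gm20715, Npas4 and Syt7 they included L1cam, a neural adhesion gene (fold 5.97 with C29F4, 3.05 with ab9110 in DMSO), Adgrb3 (5.59 and 3.31), March11 (5.44 and 3.43), Gdap1, a gene of peripheral nerve (5.23 and 4.14), Bex2 (4.96 and 4.18), Syt4, a synaptotagmin gene (4.57 and 7.09), and Bsx, a homeobox gene of the hypothalamus (4.23, no ab9110 peak). They also included Fgf12 (4.13 and 3.54), Fbll1 (4.05 and 4.08), Rtbdn (3.89, no ab9110 peak), Fam155a (3.68 and 3.54), Adcyap1, a neuropeptide gene (3.47 and 4.06), Snap25, the gene of a SNARE protein of synaptic release (3.39 and 5.24), and Olfr464 (2.8 and 2.77). Of the 18, Gm20715 and Syt7 overlapped a dTAG peak, against 34% of all C29F4 members. With 18 peaks the counting error is wide, and this difference was not tested. Further neuropeptide and granule genes held TCAGCACC alone, namely Scg2 (fold 2.74), Vip (2.62) and Sst (3.22). With ab9110 in DMSO both arms were also at Bdnf, a growth factor gene (fold 2.91, 19 fragments), Tph2, a serotonin synthesis gene (3, 24 fragments), Htr1a, a serotonin receptor gene (5.06, 16 fragments), Hcn3 (2.5, 18 fragments), Cntnap2 (3.64, 16 fragments) and Cntnap5c (2.78, 14 fragments), where no C29F4 peak overlapped. These genes were named after the motif counts were seen.

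The strongest YY1-like promoters of C29F4 were Nr3c1, Krt86, Kdm3a, CN725425 and Bscl2. Kdm3a encodes an H3K9 demethylase, and its upstream peak had a fold of 13 with C29F4 (156 fragments) and 7.61 with ab9110 in DMSO, and the overlapping dTAG peak had a fold of 10.4. Bscl2, which encodes seipin, a protein of lipid droplets, had folds of 11.2 with C29F4, 10.7 with ab9110 in DMSO and 4.76 after dTAG. Of these, Kdm3a was thus higher and Nr3c1 and Bscl2 lower after dTAG, and Krt86 had no dTAG peak. Zfp42, the gene of the YY1 relative REX1, itself carried a YY1-like word under a weak C29F4 peak 989 bp downstream of a start (fold 2.13).

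Gene lists chosen for mESC biology differed in how many genes carried a member. Over all 21848 protein-coding genes 1.64% had a C29F4 member, 8.38% an ab9110 DMSO member and 4.83% an ab9110 dTAG member. Of 40 synaptic and neuronal genes, 5 had a C29F4 member (12.5%), 8 an ab9110 DMSO member (20%) and 1 an ab9110 dTAG member (2.5%). The C29F4 ones were Celf4 (fold 5.36), Syt4 (4.57), Nefm (3.41), Snap25 and Nrxn2, the leading DMSO ones were Syt4 (7.09), Stmn2 (5.47) and Snap25 (5.24), and the dTAG one was Map2 (4.49). Of 22 pluripotency genes, 2 had a C29F4 member (9.09%), 8 an ab9110 DMSO member (36.4%) and 8 an ab9110 dTAG member (36.4%). The C29F4 ones were Zfp42 and Tdh (fold 1.87). The highest in DMSO were Tdh (5.5), Esrrb (4.85) and Zfp42 (4.12), and after dTAG Tdh (8.17), Esrrb (7.04) and Tbx3 (6.5). The Tdh values belong to different peaks, since the DMSO peak of 5.5 met a dTAG fold of 3.82 and the dTAG peak of 8.17 a DMSO fold of 4.37. The Esrrb values belong to overlapping peaks, as do those of Nanog, with folds of 3.92 and 4.46. The Zfp42 DMSO peak of 4.12 met a dTAG fold of 3.28, and the Tbx3 dTAG peak of 6.5 a DMSO fold of 3.01. In the other gene lists, DMSO and dTAG values of a gene can belong to different peaks. Of 24 EHMT complex and H3K9 methylation genes, 1 had a C29F4 member, Kdm3a, 6 had an ab9110 DMSO member, led by Kdm3a, Wiz (4.21), a zinc finger partner of EHMT2, and Cbx5 (4.02), and 5 a dTAG member, led by Atf7ip (5.21), Kdm4b (4.12) and Wiz (3.78).

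Genes of stages and tissues other than mESCs had members in few cases, on mostly small lists. Of 28 annotated genes of the 2-cell stage and zygotic genome activation, 0 had a C29F4 or dTAG member and 1, Usp17la, had an ab9110 DMSO member (fold 2.79). At the share of all genes less than 1 C29F4 member would fall on such a list. Of 37 germline genes, Rpl10l (4.37) and Sycp3 (3.01) had a C29F4 member (5.41%), and Zcwpw1 had an ab9110 member in DMSO (4.85) and after dTAG (7.35), which is 2.7% in either list. Olfactory receptor genes, nearly all with GC-poor starts only (1127 of 1135), had C29F4 members in 11 cases (0.969%, led by Olfr772 at 4.53), ab9110 DMSO members in 28 (2.47%, led by Olfr823 at 4.38) and dTAG members in 10 (0.881%, led by Olfr109 at 4.39). These shares were below those of all genes. Vomeronasal receptors had 0, 6 and 1 of 329, led by Vmn1r4 (4.45). Defensins had 0, 5 (7.81%) and 1 of 64, led by Defa35 (3.54), and serpins 1 (1.64%), 6 (9.84%) and 1 of 61, led by Serpinb6a (5.35), in DMSO near the share of all genes. Cytochromes P450 had 0, 4 and 4 of 100, led by Cyp4f13 after dTAG (3.96). Keratin genes had 1, 3 and 1 of 113, with Krt86 far above the rest, and C-type lectin-like receptors 0, 0 and 1 of 26 (Klrb1a, 3.67).

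Ribosomal protein, histone and zinc finger genes had members more often in ab9110 than in C29F4, as all genes did. Of 80 ribosomal protein genes, 3 had a C29F4 member (3.75%, namely Rpl39l and Rps26, both 4.53, and Rpl10l), 18 an ab9110 DMSO member (22.5%), among them Rpl32 (3.85) and Rpl41 (3.5), and 17 a dTAG member (21.2%), among them Rpl27a (4.72). Of 71 histone genes, 0 had a C29F4 member, 15 an ab9110 DMSO member (21.1%) and 27 a dTAG member (38%), led after dTAG by Hist1h4h (7.67), Hist1h4a (7.49) and Hist1h2bc (6.76). Histone and ribosomal protein genes have near-identical copies, so the placement of their reads is uncertain. Of 465 zinc finger genes, 13 had a C29F4 member (2.8%), led by Zfp770 (4.83), Zfp182 (4.64) and Zfp229 (3.49), 75 an ab9110 DMSO member (16.1%), led by Zfp563 (6.36), Zfp383 (5.56) and Zfp882 (5.5), and 53 a dTAG member (11.4%), led by Zscan22 (9.31), Zfp605 (6.51) and Zbtb6 (5.9). The peaks of the 3 leading zinc finger genes of C29F4, picked by fold, each overlapped an ab9110 peak in DMSO but no dTAG peak. Of all C29F4 members 42.8% did so, and the class of the other zinc finger members is not given here.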

How the data were processed

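HA ChIP-seq and input chromatin of EHMT2-dTAG mESCs were sequenced, and 4 narrowPeak lists were used. Per the study's methods and the submitters' processing notes, the authors trimmed reads, aligned them to mm10 with STAR 2.7.10 with repeats kept, removed duplicates with Picard 2.26.0 and blacklisted reads, and called peaks with MACS2 2.2.6 at p under 0.05, keeping those with a q-value under 0.05. The use of a control library is not given in the sources used here. The C29F4 list was made on merged samples. The deposited fold is the ratio of fragments to background at the summit, each with 1 added, and the deposited −log10 p and −log10 q belong to the same summit.

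Starts and exons were taken from GENCODE M21, GC content, soft-masked bases and sequence from RefSeq GRCm38. The gene of a peak is the protein-coding gene with the nearest start. Fragments and background were solved from fold and p-value for 100% of the peaks of each list, and the lowest background gave the mean coverage. For the scaled list, fragments of ab9110 DMSO peaks were multiplied by the coverage ratio (58.2%) and peaks kept at −log10 p of 4.28 or more, the lowest of the dTAG list. An overlap is a shared stretch of at least 1 bp. The overlap code was checked on simulated data (2000 peaks) with bedtools 2.31.1, and the solving of fragments on simulated summits. Python 3.11.15, pandas 2.3.3 and SciPy 1.17.1 were used. No test was made between lists, since each condition is 1 list.

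The members, gene lists and motifs were chosen with earlier results of these data known. Named were the 5 members of highest fold in each ChIP list (3 for input), the 5 strongest C29F4 members called in ab9110 DMSO and not in dTAG or input, the 5 strongest dTAG members without a DMSO or input peak, 8 genes with a member in all 3 ChIP lists, up to 3 genes per gene list and ChIP list, and the 2 peaks on either side of the GC limit. The histone symbol rule also caught MHC genes (H2- symbols), which were taken out after the values were seen. Some genes that this rule picks are not reported here.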

Additional observations from a re-analysis of the deposited data

How the results depend on the processing

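Of 72 values recomputed under the alternatives, 33 stayed within counting error of the reported value (or within 1.5 times for a count) and 39 moved. With a q-value under 0.01 in every list, the members were 1281 in ab9110 DMSO and 17 in the input. The overlap shares were then 58.3% (ab9110 dTAG members with a DMSO peak), 70.8% (C29F4 with DMSO), 28.3% (C29F4 with dTAG) and 15.9% (DMSO with C29F4), and 5.82% and 3.98% of GC-poor genes had a DMSO and a dTAG summit. With GC content under 50% the members were 881 in DMSO, 398 in dTAG and 33 in the input, and the shares were 31.1% (DMSO with dTAG), 48.2% (dTAG with DMSO) and 14.3% (DMSO with C29F4). With GC content taken within 250 bp of the summit, 36.2% of DMSO members had a dTAG peak, and with starts of coding transcripts only, 42.4%. With the summit within 500 bp of a start there were 41 input members, and the shares were 46.3% (DMSO with dTAG), 59.2% (dTAG with DMSO) and 40% (C29F4 with dTAG). With an overlap of 50% of the member, the shares were 30.4% (DMSO with dTAG), 40.2% (dTAG with DMSO), 67.1% (C29F4 with DMSO), 21.8% (C29F4 with dTAG) and 7.15% (DMSO with C29F4), and with summits at most 250 bp apart they were, in the same order, 29.8%, 45.9%, 66.3%, 23.8% and 10.1%. With the ab9110 DMSO list scaled to dTAG coverage, 688 members were left, the shares were 64% (DMSO with dTAG), 33.1% (dTAG with DMSO), 55.5% (C29F4 with DMSO) and 24.3% (DMSO with C29F4), and 3.16% of GC-poor genes had a DMSO summit. With summits within 500 bp of a start, the shares of GC-poor genes were 1.03% (C29F4), 6.65% (DMSO) and 4.36% (dTAG). The cause of the moves was not tested, beyond the smaller sets that the stricter settings leave by construction.

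No paired analysis was possible because each list gives 1 value per condition and no value per replicate, and for the same reason no replicate was left out. Peaks near the calling limit rest on few fragments, most of all after dTAG and in the input, so a missing call there is not an absence. Between ab9110 DMSO and dTAG, differences of the single libraries in depth and background cannot be told apart from treatment, and between C29F4 and ab9110 in DMSO they cannot be told apart from the antibody. Per the paper's methods the ab9110 ChIP was a separate experiment, so experiment and antibody cannot be told apart either.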

Other observations

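The 70 GC-poor promoter peaks of the dTAG input, which hold no pulldown signal, were narrow (median width 220 bp, against 452 to 661 bp in the ChIP lists) and lay far from starts, with 28.6% of summits within 250 bp. Of these, 13 overlapped an ab9110 DMSO peak (18.6%, 10.3 to 29.7%), 11 an ab9110 dTAG peak (15.7%, 8.11 to 26.4%) and 3 a C29F4 peak (4.29%, 0.893 to 12%). Over all input peaks the shares were 12.6%, 5.17% and 5.27%. For the 177 GC-rich promoter peaks of the input they were 33.3% (26.4 to 40.8%), 31.1% (24.3 to 38.5%) and 0.565% (0.0143 to 3.11%).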
